A study of Homo sapiens with 6 samples.

Results

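The MYC and MAX network was followed in MDA-MB-231 cells after silencing of RBCK1. Its members were taken by name as MYC, MAX and their partner factors MXD1, MXD3, MXD4, MXI1, MNT, MLX, MLXIP and MGA, and were found through the Entrez gene numbers of the expression tables. All 10 were listed among the 17149 genes of the tables. All 10 also passed the expression minimum of 1 FPKM in at least 3 libraries, together with 11125 other genes, so that 11135 genes were tested. The rule rests on names and uses no measured value, but the members were chosen with earlier results of these data known.

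MDA-MB-231 is an established human breast cancer line of the triple negative class with a mesenchymal character. The siRBCK1 group (3 libraries) was transfected with siRNA against RBCK1, a RING-family ubiquitin ligase of the linear ubiquitin assembly complex, and the siControl group (3 libraries) with a negative control siRNA. RNA was collected 48 h after transfection and sequenced on a BGI platform. Which RBCK1 siRNA was used for these libraries is not stated, and no source says that the 3 libraries of a group came from separate cultures, so the p-values measure only the spread between these libraries.

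MYC is a basic helix-loop-helix leucine zipper transcription factor that binds DNA as a heterodimer with MAX, preferably at the E-box CACGTG, and recruits acetyltransferases and elongation factors to growth genes. The MXD proteins, MXI1 and MNT compete for MAX and bring the SIN3-HDAC corepressor to E-boxes, and MGA joins MAX in a Polycomb complex. MLX and MLXIP (MondoA) form a parallel arm that senses glucose-derived metabolites, and MLX also dimerizes with MXD1, MXD4 and MNT, so the arms share partners. MYC is often highly expressed in triple negative breast cancer.

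The E-box that these factors read is itself present beside some of their own genes. RefSeq promoter windows on GRCh38.p14, which run from 250 bases before the transcription start to 50 bases after it, were given for 9 members, and 3 of these held CACGTG. The motif is palindromic, so that a match counts for both strands. For comparison, 7.26% of all 35116 windows held it, as did 12.9% of the tested genes with a window. The 3 member sequences are shown because they carry the network's own binding letters, with the motif in capitals, 5′ to 3′ on the strand of the gene. The MXD4 stretch is chr4:2262285-2262359 on the minus strand, the MNT stretch is chr17:2401191-2401310 on the minus strand, and the MLX stretch is chr17:42566993-42567099 on the plus strand.
MXD4: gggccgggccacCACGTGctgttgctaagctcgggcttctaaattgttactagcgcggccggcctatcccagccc
MNT: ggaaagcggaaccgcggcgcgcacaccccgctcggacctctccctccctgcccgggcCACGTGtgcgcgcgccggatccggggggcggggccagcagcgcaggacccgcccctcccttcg
MLX: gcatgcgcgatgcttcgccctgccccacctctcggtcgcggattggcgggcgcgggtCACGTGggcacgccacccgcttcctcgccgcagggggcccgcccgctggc
The motif began 238 bases before the start in MXD4, 193 bases before it in MNT and 50 bases before it in MLX. None of these 3 genes passed the test for a change in mRNA, and no binding was measured.

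RBCK1 mRNA fell in the siRBCK1 libraries, which checks the labels. It had 41.53, 46.15 and 45.61 FPKM in the siRBCK1 libraries, against 64.96, 63.62 and 73.37 FPKM in the siControl libraries, or 66.0% of the siControl mean (adjusted p = 6.55e-05, limma). FPKM counts the fragments of a gene per kilobase of transcript, scaled to the mapped fragments of the library. It is a level per length, so genes can be ranked by it, but it holds no read total, and the depth of each library is unknown. The FPKM values summed to between 587248.4 and 659065.0 per library. Among the markers checked, VIM (1950 FPKM in siRBCK1 cells and 1970 FPKM in siControl cells), CD44 and AXL were high, and ESR1, PGR and CDH1 stayed at 0.25 FPKM or less, whereas SPARC, also fixed as a marker of the line, reached 0.41 FPKM at most and of the markers fixed as low or absent, ERBB2 averaged 18.2 FPKM in siRBCK1 cells and 13.0 FPKM in siControl cells and EPCAM 8.19 FPKM in siRBCK1 cells and 7.36 FPKM in siControl cells. Markers of leukocytes, endothelium and hepatocytes reached 0.35 FPKM at most. On the first principal component, which held 78.7% of the variance, siControl replicate 3 lay at 25.55 while its companions lay at 15.45 and 14.58 and the siRBCK1 libraries at -18.93, -17.51 and -19.14.

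Of the 10 members, 4 rose (MYC, MXD3, MXI1 and MLXIP), 1 fell (MAX) and 5 did not pass an adjusted p of 0.05 in limma. Over all tested genes, 36.8% were higher and 17.1% lower in siRBCK1 than in siControl cells, so 4 and 1 of 10 were close to the background. The log2 fold changes of the members, on the log2(FPKM + 1) scale, ran from -0.24 for MAX to 0.42 for MXI1, with a median of 0.18, against a median of 0.11 over all tested genes and a range of -0.30 to 0.49 between their 10th and 90th percentiles. On this scale the change of a scarce gene is understated. The values of 7 members did not overlap between the groups, as held for 62.8% of all tested genes. The median of 0.11 means that the typical tested gene was listed higher in siRBCK1 cells. The FPKM sums went the other way, with 587248.4, 594194.1 and 590315.8 in the siRBCK1 libraries, against 631968.6, 614082.0 and 659065.0 in the siControl libraries. Other scalings reduced this median to 0.01 (quantile normalization) or 0.02 (trimmed-mean scaling). They turned the balance of all calls from 4103 higher and 1899 lower to 2787 and 2703 or to 2819 and 2782. The members are therefore also given relative to the median of all genes. Each library is a bulk sample, so fewer cells that express a gene and less of its mRNA per cell cannot be told apart.

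**Figure D1:**
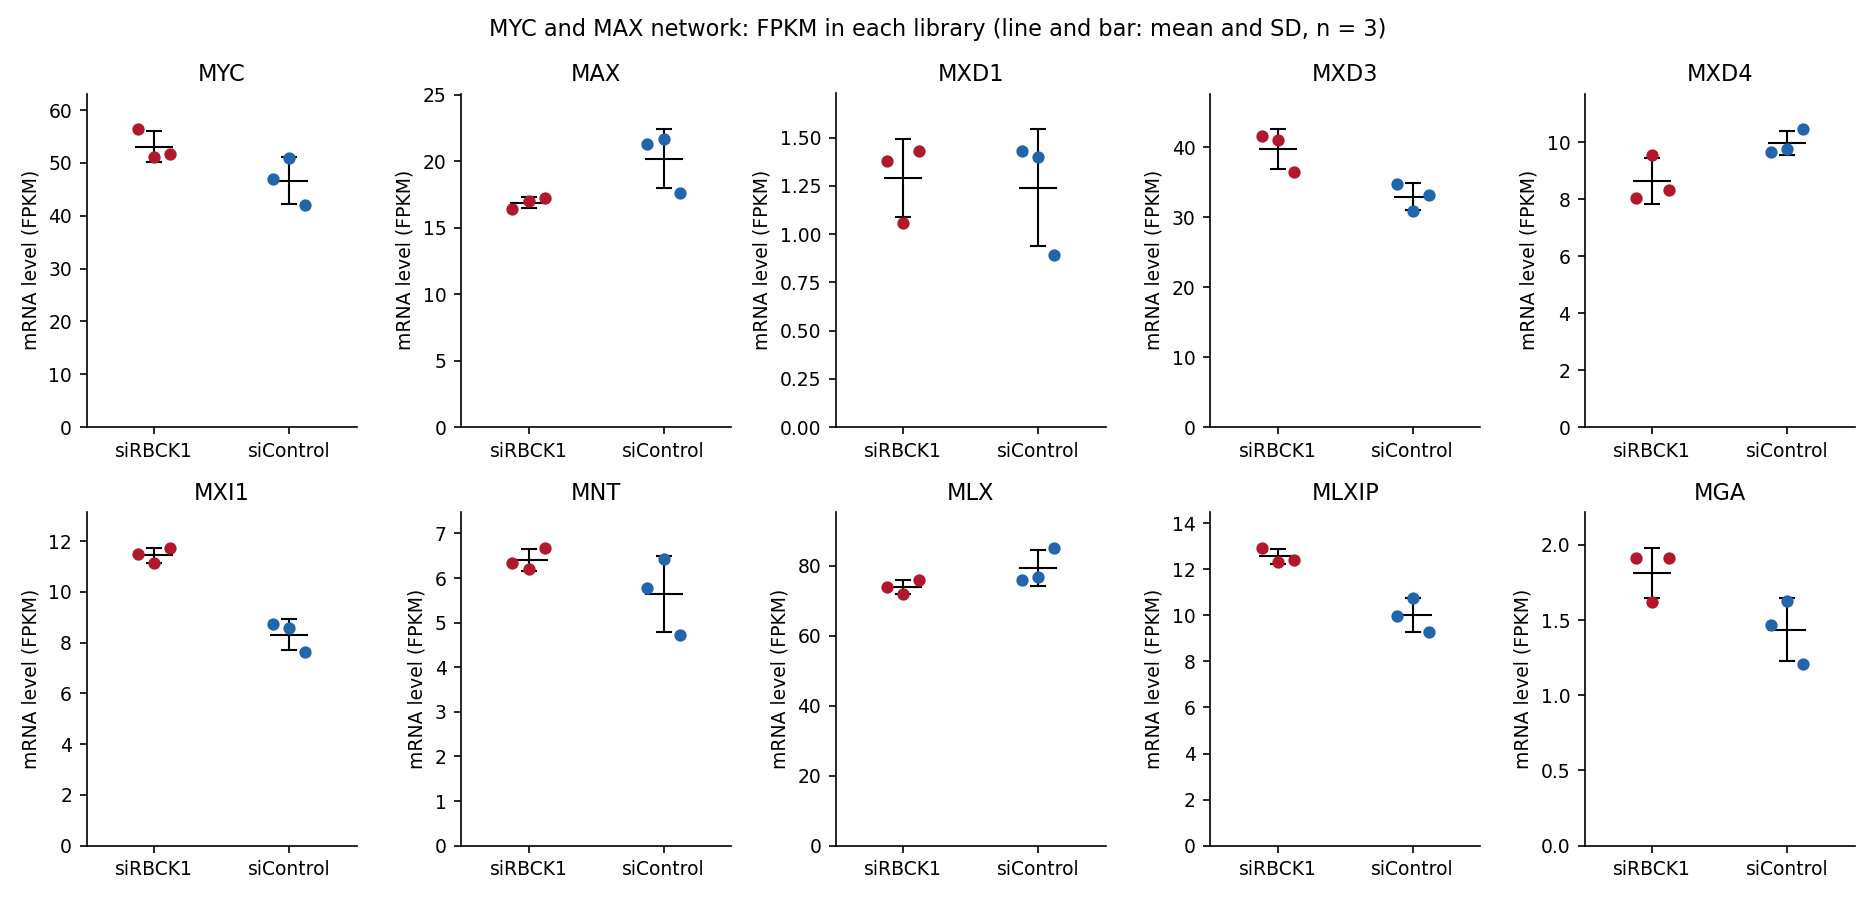
mRNA level of each network member (y axis, FPKM from 0) in the 3 siRBCK1 libraries (red, left) and the 3 siControl libraries (blue, right), with points for libraries from replicate 1 to 3 and a line and bar for the mean and SD. The red points lie above the blue ones for MYC, MXD3, MXI1 and MLXIP and below them for MAX, MXD4 and MLX, and the groups overlap for MXD1, MNT and MGA.

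MYC, the activator at the head of the network, was higher in siRBCK1 cells by a small margin. MYC (gene 4609) had 56.36, 51.02 and 51.77 FPKM in the siRBCK1 libraries, against 46.95, 50.84 and 42.05 FPKM in the siControl libraries. The groups did not overlap, but the lowest siRBCK1 value and the highest siControl value, both of replicate 2, lay almost together. The means were 53.1 ± 2.89 FPKM in siRBCK1 cells and 46.6 ± 4.40 FPKM in siControl cells (SD, n = 3 each). The log2 fold change was 0.19 (SE 0.07), and the adjusted p of 0.0495 from limma lay just inside the threshold. Relative to the median of all genes, MYC was higher by 0.08. The call held in only 2 of 15 alternatives, the stricter filter of 5 FPKM and the fit without siControl replicate 2, with fold changes between 0.05 and 0.25 and adjusted p between 0.0137 and 0.576 over all of them. It was lost without siRBCK1 replicate 1 (adjusted p = 0.175), 2 (0.0625) or 3 (0.0846) and without siControl replicate 1 (0.0911) or 3 (0.125).

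MAX, the shared partner of MYC, the MXD proteins, MNT and MGA, fell while MYC and its competitors MXD3 and MXI1 rose. MAX (gene 4149) had 16.42, 17.01 and 17.23 FPKM in the siRBCK1 libraries, against 21.27, 21.67 and 17.65 FPKM in the siControl libraries. All 3 siRBCK1 values were tightly grouped, and siControl replicate 3, the library that stood apart, came nearest to them. The siRBCK1 mean of 16.9 ± 0.419 FPKM was 83.6% of the siControl mean of 20.2 ± 2.21 FPKM, with a log2 fold change of -0.24 (SE 0.08, adjusted p = 0.0254 from limma). Relative to the median of all genes the difference was -0.35, and the fold change stayed negative in all 15 alternatives, from -0.38 to -0.19. The call was lost in 6 of them, without any filter (adjusted p = 0.0584), without siRBCK1 replicate 1 (0.0777), 2 (0.0578) or 3 (0.0559) and without siControl replicate 1 (0.0912) or 2 (0.0824).

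The MXD family, the antagonists that compete with MYC for MAX, did not move as a block. MXI1 and MXD3 rose, MXD4 was lower without passing the test, and MXD1 gave no difference that could be told from the spread. MXI1 (gene 4601), also known as MXD2, had 11.49, 11.14 and 11.72 FPKM in the siRBCK1 libraries, against 8.74, 8.59 and 7.63 FPKM in the siControl libraries. Every siRBCK1 library lay well above every siControl library, and as deposited MXI1 had the largest log2 fold change of the members in absolute value. Relative to the median of all genes, and under the 4 other scalings tried, MAX was farther from 0 than MXI1. The siRBCK1 mean of 11.5 ± 0.292 FPKM was 138% of the siControl mean of 8.32 ± 0.602 FPKM, a log2 fold change of 0.42 (SE 0.07, adjusted p = 0.000864 from limma). This call passed in all 15 alternatives, with fold changes of 0.26 to 0.46, and MXI1 stood 0.31 above the median of all genes.

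MXD3 was by far the most abundant antagonist of the family. MXD3 (gene 83463) had 41.67, 41.12 and 36.50 FPKM in the siRBCK1 libraries, against 34.78, 30.96 and 33.13 FPKM in the siControl libraries. No siRBCK1 library fell below a siControl library, although siRBCK1 replicate 3 was close to siControl replicate 1. The siRBCK1 mean, 39.8 ± 2.84 FPKM, was 121% of the siControl mean, with a log2 fold change of 0.26 (SE 0.07, adjusted p = 0.00794 from limma). The call passed in 13 of 15 alternatives and was lost with trimmed-mean scaling (0.15, adjusted p = 0.0937) and median centring (0.12, adjusted p = 0.203). In GENCODE 29 on GRCh38, MXD3 spans 177301461 to 177312757 of chromosome 5 (minus strand). Its exons share 1158 nt with PRELID1 on the other strand and 926 nt with RAB24 on the same strand. PRELID1 averaged 454 FPKM in siRBCK1 cells and 502 FPKM in siControl cells, and RAB24 averaged 26.6 FPKM in siRBCK1 cells and 26.3 FPKM in siControl cells. The sources used here do not say how reads of shared exons were assigned or whether strand was used, and their part in the MXD3 values was not tested.

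MXD4 pointed the other way. MXD4 (gene 10608) had 8.04, 9.56 and 8.31 FPKM in the siRBCK1 libraries, against 9.66, 9.77 and 10.45 FPKM in the siControl libraries. The groups did not overlap, but siRBCK1 replicate 2 lay next to the siControl values. The means were 8.64 ± 0.811 FPKM in siRBCK1 cells and 9.96 ± 0.428 FPKM in siControl cells, and the log2 fold change of -0.19 (95% interval -0.36 to -0.01) did not pass (adjusted p = 0.0662 from limma). Relative to the median of all genes, MXD4 stood at -0.30. It passed without siRBCK1 replicate 2 (adjusted p = 0.0331 from limma). It also passed under scalings that reduce the upward shift of the median gene, with adjusted p of 0.0130 for trimmed-mean scaling and 0.00834 for quantile normalization.

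MXD1, the founding member of the family, was scarce. MXD1 (gene 4084) had 1.38, 1.06 and 1.43 FPKM in the siRBCK1 libraries, against 1.43, 1.40 and 0.89 FPKM in the siControl libraries. The groups overlapped throughout, with a low library in each. The log2 fold change of 0.04 (95% interval -0.21 to 0.29) did not pass in limma (adjusted p = 0.795), and the sign was opposite in 6 of 14 alternatives. That interval is the widest among the members. The exons of MXD1 on chromosome 2 share 237 nt with SNRNP27 on the same strand, which averaged 21.6 FPKM in siRBCK1 cells and 42.3 FPKM in siControl cells.

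**Figure D2:**
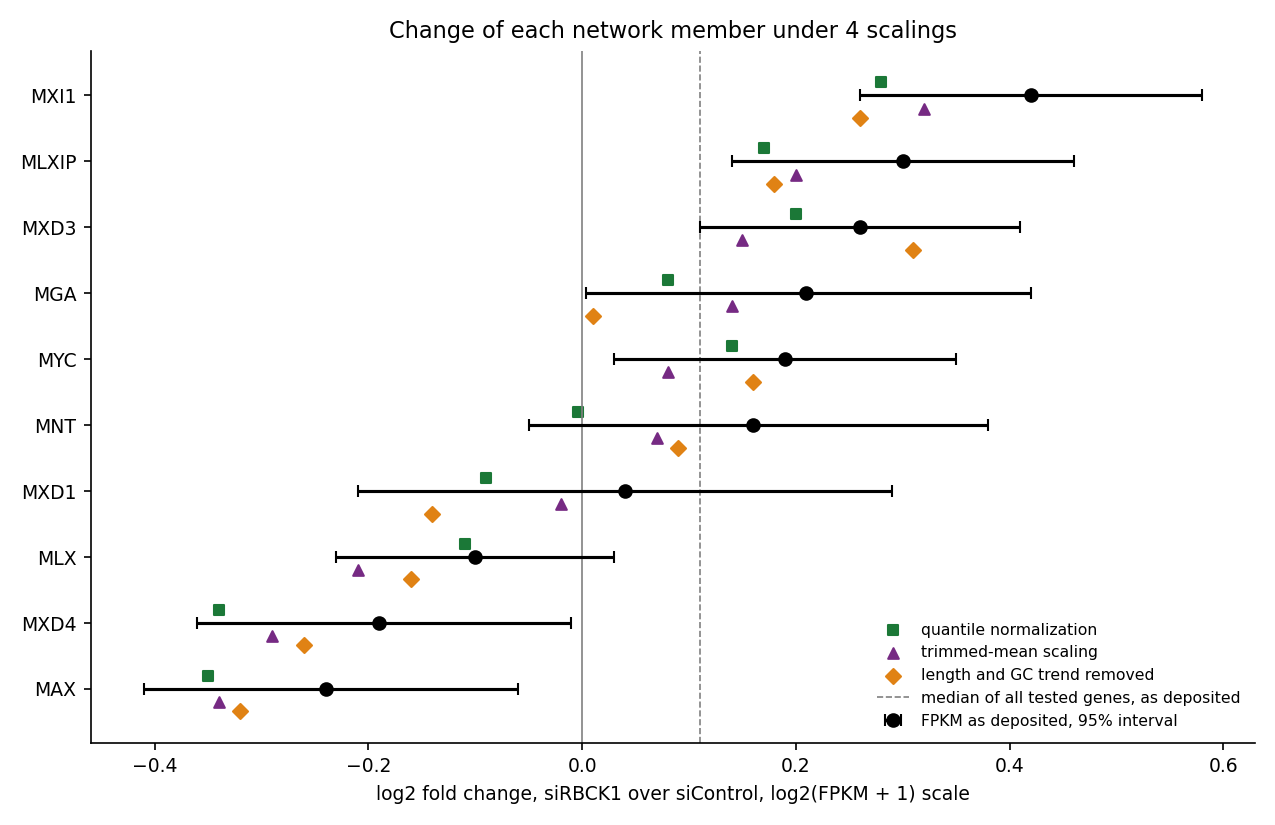
Log2 fold change of each member, siRBCK1 over siControl (x axis, log2(FPKM + 1) scale), as deposited (black, bar for the 95% interval) and after quantile normalization (green), trimmed-mean scaling (purple) and removal of the trend with transcript length and GC content (orange). MXI1, MLXIP and MXD3 stay right of 0 and MAX, MXD4 and MLX left of 0 under each of the 4 scalings, whereas MXD1 turns from 0.04 to between -0.14 and -0.02 under the other 3, and the dashed line marks the median of all tested genes at 0.11.

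MNT, a MAX and MLX partner that represses MYC targets in both resting and growing cells, did not pass the test. MNT (gene 4335) had 6.33, 6.20 and 6.68 FPKM in the siRBCK1 libraries, against 5.77, 6.43 and 4.73 FPKM in the siControl libraries. The siControl libraries spread more widely than the siRBCK1 libraries, and siControl replicate 2 lay among the siRBCK1 values. The means were 6.40 ± 0.248 FPKM in siRBCK1 cells and 5.64 ± 0.857 FPKM in siControl cells, with a log2 fold change of 0.16 (95% interval -0.05 to 0.38, adjusted p = 0.177 from limma), which turned to -0.0036 after quantile normalization. Without siControl replicate 2 the adjusted p was 0.0495.

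MGA, the very large protein that pairs with MAX and scaffolds the Polycomb complex PRC1.6, was expressed at low levels. MGA (gene 23269) had 1.91, 1.62 and 1.91 FPKM in the siRBCK1 libraries, against 1.47, 1.63 and 1.21 FPKM in the siControl libraries. The groups overlapped only through replicate 2, where siControl was marginally above siRBCK1. The means of 1.81 ± 0.167 FPKM in siRBCK1 cells and 1.44 ± 0.212 FPKM in siControl cells gave a log2 fold change of 0.21 (95% interval 0.0036 to 0.42), which did not pass (adjusted p = 0.0794 from limma) except without siControl replicate 2 (0.0447). MGA has the longest transcript of the members, at 14439 nt against a median of 3599 nt over the tested genes. Over 11074 genes the fold change correlated weakly with transcript length (Spearman rho 0.224, across genes, which are not independent), and removal of this trend together with that of GC content left 0.01 for MGA.

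In the MLX arm, the partner that senses glucose rose and the common subunit did not. MLXIP, or MondoA, which shuttles from the outer mitochondrial membrane to the nucleus with MLX, was clearly higher. MLXIP (gene 22877) had 12.93, 12.33 and 12.41 FPKM in the siRBCK1 libraries, against 9.98, 10.76 and 9.29 FPKM in the siControl libraries. Every siRBCK1 library exceeded every siControl library by more than 1 FPKM. The siRBCK1 mean, 12.6 ± 0.326 FPKM, was 125% of the siControl mean, with a log2 fold change of 0.30 (SE 0.07, adjusted p = 0.00509 from limma). MLXIP passed in all 15 alternatives (0.16 to 0.35) and stood 0.19 above the median of all genes.

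MLX, the MAX-like subunit that MLXIP, MNT, MXD1 and MXD4 use in place of MAX, was the most abundant member. MLX (gene 6945) had 73.89, 71.77 and 75.94 FPKM in the siRBCK1 libraries, against 76.03, 76.63 and 85.11 FPKM in the siControl libraries. The groups lay side by side without overlap, separated by less than the range within either of them. The means of 73.9 ± 2.09 FPKM in siRBCK1 cells and 79.3 ± 5.08 FPKM in siControl cells gave a log2 fold change of -0.10 (95% interval -0.23 to 0.03, adjusted p = 0.168 from limma). Relative to the median of all genes it was -0.21, and it passed with trimmed-mean scaling (adjusted p = 0.0270), median centring (0.0268) and removal of the length and GC trend (0.0385). MLX spans 42567068 to 42573239 of chromosome 17 (plus strand), and its exons share 770 nt with PSMC3IP on the other strand, which averaged 11.5 FPKM in siRBCK1 cells and 9.44 FPKM in siControl cells.

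Ranked by their levels per length, the members fell in nearly the same order in both groups. In siRBCK1 cells the order was MLX, MYC, MXD3, MAX, MLXIP, MXI1, MXD4, MNT, MGA and MXD1, and no neighbours overlapped. In siControl cells it was MLX, MYC, MXD3, MAX, MLXIP, MXD4, MXI1, MNT, MGA and MXD1, where MLXIP and MXD4 overlapped, as did MGA and MXD1. MXI1 and MXD4 thus changed places. MLX lay at the 88.0th percentile of the tested genes in siRBCK1 cells and at the 88.9th in siControl cells, and MYC at the 83.8th in siRBCK1 cells and the 82.5th in siControl cells. MXD1 lay at the 3.38th in siRBCK1 cells and the 4.85th in siControl cells. The paralogs outside the members were nearly silent, with MYCL at 0.22 FPKM in siRBCK1 cells and 0.12 FPKM in siControl cells and MLXIPL (ChREBP) at 0.313 FPKM in siRBCK1 cells and 0.327 FPKM in siControl cells, and they were not tested. MYCN was not analysed here.

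Since MAX is shared, the members were also set against each other within each library, where a single scaling factor per library cancels. MYC over MAX was 3.43, 3.0 and 3.0 in the siRBCK1 libraries, against 2.21, 2.35 and 2.38 in the siControl libraries. More MYC mRNA per MAX mRNA was thus listed in every siRBCK1 library. The summed level of MXD1, MXD3, MXD4 and MXI1 was 61.1 ± 2.76 FPKM in siRBCK1 cells and 52.5 ± 1.97 FPKM in siControl cells, of which MXD3 made up 65.0% in siRBCK1 cells and 62.8% in siControl cells. That sum over MAX was 3.81, 3.70 and 3.36 in the siRBCK1 libraries, against 2.57, 2.34 and 2.95 in the siControl libraries. Both ratios divide by MAX, which was lower in every siRBCK1 library than in every siControl library. MYC and the MXD sum were higher in every siRBCK1 library. The shared direction of the ratios follows from these levels and is no further result.

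The balance of MYC to its MXD antagonists, by contrast, showed no separation. MYC over the MXD sum was 0.901, 0.811 and 0.893 in the siRBCK1 libraries, against 0.860, 1.00 and 0.807 in the siControl libraries, with means of 0.868 ± 0.0495 in siRBCK1 cells and 0.890 ± 0.101 in siControl cells. Within the MXD family, MXI1 over MXD4 was 1.43, 1.17 and 1.41 in the siRBCK1 libraries, against 0.905, 0.879 and 0.730 in the siControl libraries, so that the gene in excess differed between the groups. MLX over MLXIP was 5.71, 5.82 and 6.12 in the siRBCK1 libraries, against 7.62, 7.12 and 9.16 in the siControl libraries, with siControl replicate 3 the highest. These ratios are descriptions. With 3 libraries against 3, the smallest two-sided p of an exact permutation test is 0.1, and protein levels, which decide how dimers form, were not measured.

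**Figure D3:**
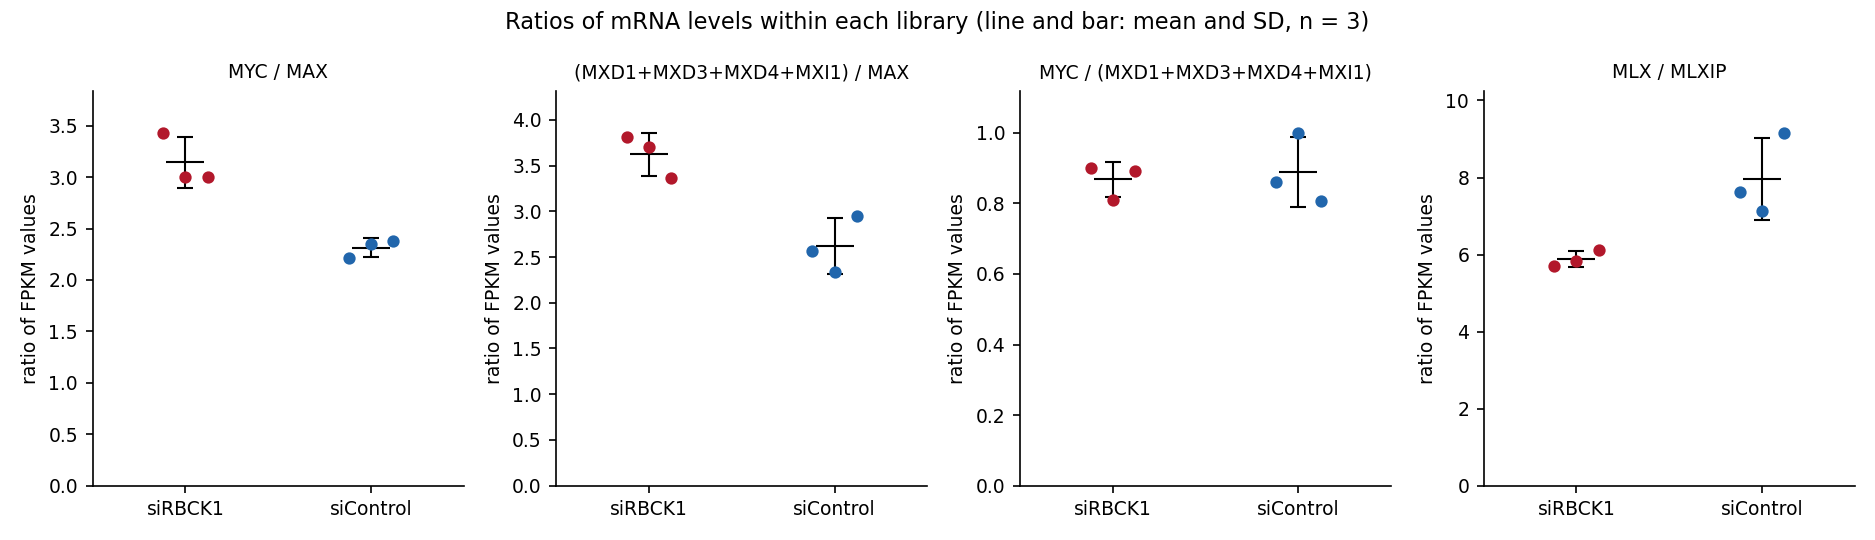
Ratios of FPKM values (y axes from 0) within each of the 3 siRBCK1 libraries (red, left) and the 3 siControl libraries (blue, right), with the mean and SD as a line and bar. MYC over MAX and the summed antagonists over MAX lie higher in all siRBCK1 libraries (3.0 to 3.43 against 2.21 to 2.38 for MYC), MLX over MLXIP lies lower, and MYC over the antagonists overlaps.

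The genes whose profiles over the 6 libraries were closest to a member's, by Euclidean distance of centred log2 values among 11125 genes, were looked up for MYC and for MXI1. For MYC they were PDZD2 (distance 0.0234), UBE3C (0.0439) and RREB1 (0.0473), where the median over all genes was 0.379. None of these 3 passed the test. For MXI1 they were PRPF38A (0.0204), RECK (0.0236) and RACGAP1 (0.0312), against a median of 0.462. Their log2 fold changes were 0.43, 0.41 and 0.41. Genes chosen by this distance have about the fold change of the member, so these changes are no further result.

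Of the coactivators and other partners of MYC, 18 were tested, and 8 rose, 1 fell and 9 did not pass. These shares of 44.4% and 5.56% stood against 36.8% higher and 17.1% lower over all tested genes, with a median log2 fold change of 0.18 against 0.11 over all tested genes. CDK9, the kinase of the elongation factor P-TEFb, averaged 31.0 ± 1.17 FPKM in siRBCK1 cells and 20.1 ± 1.49 FPKM in siControl cells (0.60, adjusted p = 4.91e-05 from limma). WDR5, a chromatin scaffold that helps MYC to bind, and HCFC1, a host cell factor that MYC contacts, also rose (0.45 and 0.39). RUVBL2, a chromatin remodelling ATPase, fell by 0.17 and averaged 220 FPKM in siRBCK1 cells and 247 FPKM in siControl cells (adjusted p = 0.0357). That fall was not called in 9 of 15 alternatives, among them quantile normalization (-0.07, adjusted p = 0.189) and the fits without siRBCK1 replicate 1 (0.119), 2 (0.0535) or 3 (0.10) and without siControl replicate 3 (0.0557). Trimmed-mean scaling gave 5 higher and 3 lower among these 18, and 2819 higher and 2782 lower among all 11135 tested genes.

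Of 24 tested genes that set MYC protein stability, 12 rose, 5 fell and 7 did not pass (median 0.20), shares of 50% and 20.8% against 36.8% and 17.1% over all genes. FBXW7, the F-box protein that targets phosphorylated MYC, rose by 0.43. TRIM32, a ubiquitin ligase for MYC, rose by 0.52 and AXIN1, a scaffold for MYC dephosphorylation, by 0.41. SET, an inhibitor of the phosphatase PP2A, had 66.42, 63.40 and 68.35 FPKM in the siRBCK1 libraries, against 144.17, 142.44 and 126.45 FPKM in the siControl libraries (-1.05, adjusted p = 6.67e-07 from limma). USP36, a nucleolar deubiquitinase of MYC, and PLK1, a mitotic kinase, fell as well (-0.47 and -0.29). The members that rose thus include ligases and those that fell include proteins known to stabilize MYC, although USP37, a deubiquitinase of MYC, rose by 0.42 and CIP2A, another PP2A inhibitor, rose by 0.40. SET has near-identical copies in the genome, so its level is uncertain. Without siRBCK1 replicate 1 or replicate 3 the count of falls was 3, and removal of the length and GC trend gave 7 rises and 7 falls. Among all 11074 genes tested with that trend removed, 2827 rose and 2866 fell.

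Regulators of MYC mRNA were split evenly, with 6 of 20 higher, 6 lower and 8 without a call (median 0.07), that is 30.0% each way against 36.8% higher and 17.1% lower over all genes. RBPJ, the DNA-binding factor of Notch signalling, a pathway known to activate MYC in T cells, had 8.02, 8.24 and 7.94 FPKM in the siRBCK1 libraries, against 25.57, 20.14 and 26.95 FPKM in the siControl libraries (-1.47, adjusted p = 1.57e-06 from limma). All siRBCK1 values lay far below all siControl values. FUBP3, of the family that binds the far upstream element of MYC, fell by 0.56, and NME2, whose reads can be shared with NME1, by 0.29. ZFP36L1, a decay factor for AU-rich mRNAs, rose by 0.74, PTBP1 by 0.52 and HNRNPK by 0.40, both RNA-binding proteins that promote MYC translation.

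The SIN3-HDAC corepressor, which the MXD proteins and MNT recruit, had 9 of 18 genes higher, 2 lower and 7 without a call (median 0.20), shares of 50% and 11.1% against 36.8% and 17.1% over all genes. HDAC1, a catalytic subunit, had 87.39, 87.26 and 89.42 FPKM in the siRBCK1 libraries, against 50.60, 53.35 and 54.31 FPKM in the siControl libraries (0.73, adjusted p = 2.17e-06 from limma). Both deacetylases rose, with HDAC2 at 52.6 ± 0.388 FPKM in siRBCK1 cells and 36.5 ± 5.60 FPKM in siControl cells (0.53), as did ING2, a histone reader (0.59), and the scaffold SIN3B (0.27). The scaffold SIN3A itself, with 0.09, gave no call, and BRMS1 fell by 0.34. Trimmed-mean scaling, median centring and quantile normalization each left 6 higher and 2 lower, and leaving out siRBCK1 replicate 1 or 2 or siControl replicate 1 left 1 lower. Among all 11135 tested genes these scalings gave, in that order, 2819, 2348 and 2787 higher and 2782, 3145 and 2703 lower. Of the PRC1.6 partners of MGA, 6 of 13 rose, 1 fell and 6 did not pass (median 0.16), shares of 46.2% and 7.69% against the same background. TFDP1 (0.56) and TFDP2 (0.33), partners of E2F factors, rose, although TFDP2 was not called after quantile normalization (adjusted p = 0.0618) or removal of the length and GC trend (0.0768). BACC1 fell by 0.42, and the subunits particular to this complex, PCGF6, L3MBTL2 and E2F6, had 0.09, 0.06 and -0.03 and gave no call. Removal of the length and GC trend left 3 rises and 1 fall among these partners, and 2827 rises and 2866 falls among all 11074 tested genes.

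The glucose-responsive targets of MLXIP and MLX had the largest share of rises of the 8 lists as deposited. This rank did not hold in every alternative, and with trimmed-mean scaling their share equalled that of the genes for MYC protein stability. The lists were written with earlier results of these data known, so the shares and their rank are descriptions only. Of 14 listed genes, 12 were tested, and 9 rose, 1 fell and 2 did not pass, that is 75.0% higher against 36.8% over all genes, with a median of 0.29. BHLHE40, a circadian repressor, averaged 33.9 ± 0.749 FPKM in siRBCK1 cells and 14.8 ± 3.21 FPKM in siControl cells (1.16, adjusted p = 3.54e-05 from limma), and PFKFB3, which makes the activator of glycolytic phosphofructokinase, averaged 16.8 ± 0.326 FPKM in siRBCK1 cells and 9.15 ± 1.87 FPKM in siControl cells (0.83). TXNIP, the inhibitor of glucose uptake that is the best known target of MLXIP, had 72.36, 72.29 and 79.50 FPKM in the siRBCK1 libraries, against 53.31, 51.40 and 44.27 FPKM in the siControl libraries (0.58, adjusted p = 1.15e-04). The groups were clearly apart for all 3. The count of rises was 5 with trimmed-mean scaling or median centring, 6 after quantile normalization and 5 without siRBCK1 replicate 1, with 1 fall in each. Among all 11135 tested genes, 2819, 2348 and 2787 rose under these 3 scalings in that order. Without siRBCK1 replicate 1, 3217 of 10985 genes rose.

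CACGTG lay in a promoter window of 5 of the 11 listed genes that had one. The windows of PFKFB3 and BHLHE40, which rose most, are shown in part for comparison with the member sequences, with the motif in capitals as above. The PFKFB3 stretch is chr10:6202767-6202886 and the BHLHE40 stretch is chr3:4979187-4979254, both on the plus strand (RefSeq, GRCh38.p14).
PFKFB3: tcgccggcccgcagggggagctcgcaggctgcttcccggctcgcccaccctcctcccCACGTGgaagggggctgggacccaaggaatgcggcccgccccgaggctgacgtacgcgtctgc
BHLHE40: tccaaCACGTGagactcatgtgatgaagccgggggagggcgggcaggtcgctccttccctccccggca
The motif began 108 bases before the start in PFKFB3 and 245 bases before it in BHLHE40. Over all tested genes, the 1189 with CACGTG in a window were higher in 37.7% and lower in 16.8%, with a median of 0.11, and the 8022 without it were higher in 37.5% and lower in 16.6%, with the same median.

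The genes that MYC is known to activate did not shift together. Of 64 tested, 23 rose, 15 fell and 26 did not pass. These shares of 35.9% and 23.4% stood against 36.8% and 17.1% over all genes. The median of 0.09 was close to that of all genes. Of the 56 listed genes with a promoter window, 32 held CACGTG, or 57.1%, against 12.9% of the tested genes with a window. The balance turned to 15 higher and 22 lower under trimmed-mean scaling, and to 13 and 22 under median centring. Among all 11135 tested genes these scalings gave 2819 higher and 2782 lower, and 2348 and 3145. NOLC1, a nucleolar phosphoprotein of ribosome biogenesis, had 78.86, 73.29 and 77.04 FPKM in the siRBCK1 libraries, against 16.85, 18.24 and 15.15 FPKM in the siControl libraries (2.13, adjusted p = 2.76e-08 from limma), and was far outside the range of the other genes on the list. PLK4, the kinase of centriole duplication, rose by 0.69, and HSPD1, a mitochondrial chaperonin with copies elsewhere in the genome, by 0.52. SRM, which makes spermidine, fell by 0.47, DCTPP1, a nucleotide hydrolase, by 0.37, and MRTO4, a ribosome assembly factor, by 0.30. Genes of ribosome biogenesis thus stood on both sides.

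The genes that MYC is known to repress gave 6 rises, 1 fall and 7 genes without a call among 14 tested (median 0.03), shares of 42.9% and 7.14% against 36.8% and 17.1% over all genes. With the filter of 5 FPKM, which tests fewer genes, 3 rose and 1 fell, where 3067 rose and 1629 fell among all 7974 genes. CEBPD, a differentiation factor, had 37.47, 54.36 and 51.17 FPKM in the siRBCK1 libraries, against 27.91, 18.09 and 20.03 FPKM in the siControl libraries (1.09, adjusted p = 2.71e-04 from limma). NDRG1, a stress and differentiation gene named for its repression by MYC family proteins, rose by 0.71 and BTG1, an antiproliferative factor, by 0.23 (adjusted p = 0.0127). The BTG1 call was lost after quantile normalization (adjusted p = 0.20), trimmed-mean scaling (0.0998), median centring (0.234) and removal of the length and GC trend (0.759), and without siRBCK1 replicate 1 (0.0665). CDKN1A (p21), the cell cycle inhibitor that MYC represses through MIZ1, had 85.64, 87.83 and 85.53 FPKM in the siRBCK1 libraries, against 120.41, 122.79 and 122.88 FPKM in the siControl libraries (-0.49, adjusted p = 1.73e-05). It was the only gene on the list to fall as the data were deposited, whereas 6 were lower under median centring, 4 after quantile normalization and 3 under trimmed-mean scaling, after removal of the length and GC trend or without siControl replicate 3. Among all 11135 tested genes, 3145, 2703 and 2782 were lower under the first 3 of these settings in that order. With the trend removed it was 2866 of 11074, and without siControl replicate 3 it was 1952 of 11070.

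**Figure D4:**
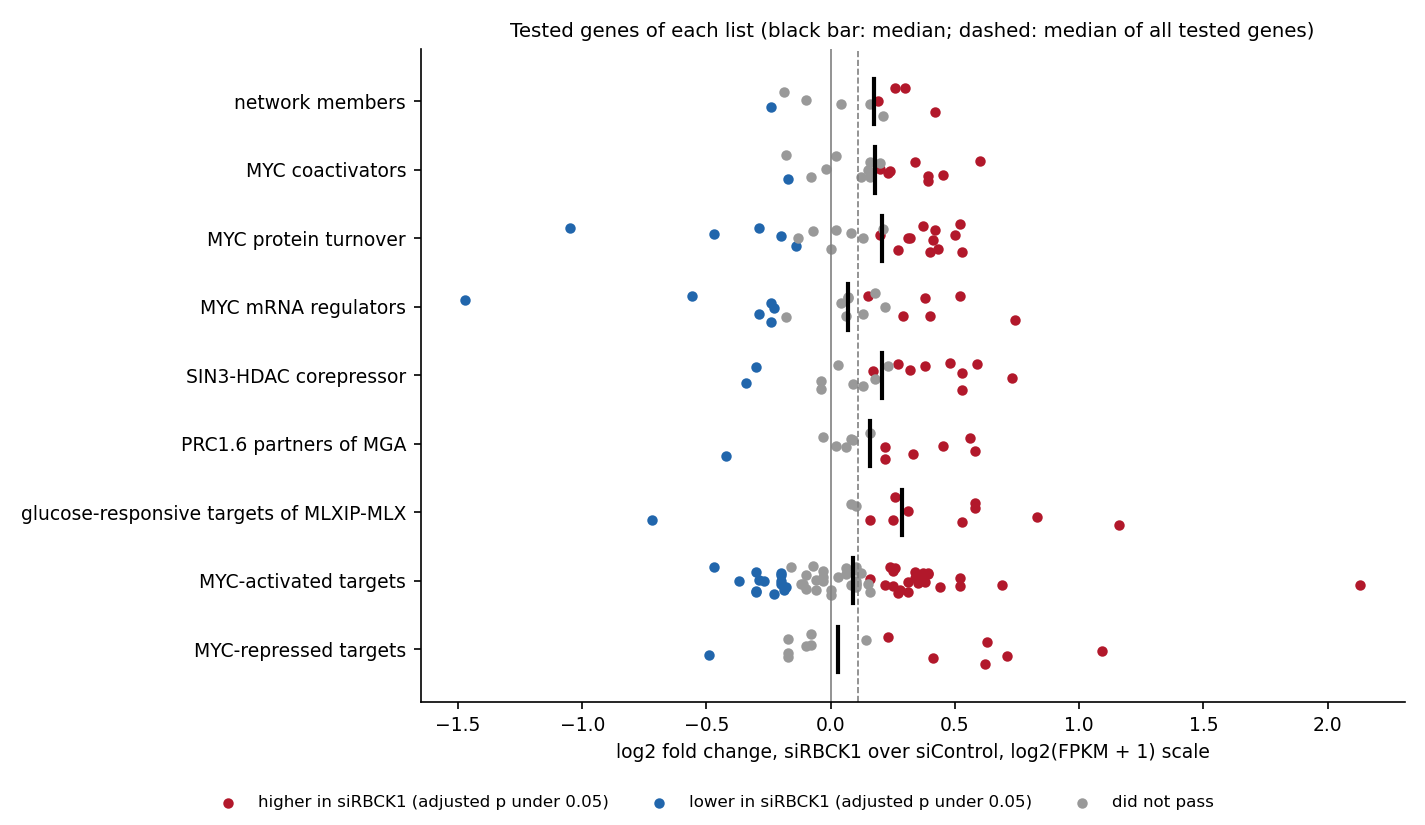
Log2 fold change, siRBCK1 over siControl (x axis, log2(FPKM + 1) scale), of each tested gene of the network and of 8 lists of its partners, regulators and targets (rows), coloured by whether it rose (red), fell (blue) or did not pass an adjusted p of 0.05 (grey). Black bars mark the medians, from 0.03 for the MYC-repressed targets to 0.29 for the glucose-responsive targets, against the dashed median of all tested genes at 0.11, and the points of NOLC1 (2.13) and RBPJ (-1.47) lie farthest out.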

How the data were processed

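RNA-seq of MDA-MB-231 cells comprised 3 siRBCK1 and 3 siControl libraries. The authors deposited FPKM values with 2 decimals for 17149 genes per library, listed by Entrez gene number, and the submitters' processing notes name GRCh38. For the aligner, quantifier and annotation, nothing was given in the sources used here. A symbol was found for 17022 gene numbers and not for 127. The table of siRBCK1 replicate 2 carries the name of replicate 1 in its header. Of values over 1 FPKM, 0.556% were identical between both, and it was kept as its own library. Read totals were not given and whole reads could not be recovered from the FPKM steps, so no count test was run.

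Values were transformed to log2(FPKM + 1). Genes needed 1 FPKM or more in at least 3 libraries, which left 11135. They were fitted together in limma 3.58.1 (R 4.3.3) using an intensity trend. Tests were two-sided, p-values were adjusted by Benjamini-Hochberg over all of them, and the threshold was 0.05. The siRBCK1 group was compared with the siControl group without a replicate term. On simulated data with 10905 genes, 54% of genes changed 1.25-fold, 90% changed 1.5-fold, 96% changed 2-fold and 100% changed 3-fold were recovered, and 11 of 181 calls were of unchanged genes. The simulation changed 50 genes at each fold size, equally up and down, all at about 5 FPKM or more in the siControl group. The real data held far more calls with an upward median, and MXD1 and MGA lay below that level. The simulated rates are therefore no estimate for the real comparison.

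The members and the gene lists were chosen with earlier results of these data known, and the lists were written from memory. The lists share genes, among them WDR5, CBX3, HK2 and PLK1, so their shares are not independent. The text names every member and, per list, up to 3 rises and 3 falls, the largest among called genes without overlap between groups and with a mean of at least 5 FPKM in either group. FBXW7, USP37, CIP2A, SIN3A, SIN3B, PCGF6, L3MBTL2 and E2F6 were named after their values were seen. The results for 2 genes of the lists are not reported here. Exon overlaps were taken from GENCODE 29 and promoter windows from RefSeq. Alternatives were quantile normalization, median centring, trimmed-mean scaling on FPKM, a minimum of 5 FPKM or none, a pseudocount of 0.1, no intensity trend, a replicate block and each library left out. Removal of a loess trend with length and GC content was added after seeing the data.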

Additional observations from a re-analysis of the deposited data

How the results depend on the processing

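The calls of MXI1 and MLXIP passed in all 15 alternatives. MYC, MAX and MXD3 kept their direction in all 15 but not always their call. Genes higher and lower in siRBCK1 cells were 4103 and 1899 as reported, 2348 and 3145 with median centring and 2827 and 2866 after removal of the length and GC trend, and leaving out a library gave 3061 to 4151 and 1479 to 1952. Of the members, 2 were higher with trimmed-mean scaling and with median centring. The number lower was 0 with no filter, 2 after quantile normalization, and 3 with trimmed-mean scaling, median centring or the trend removed, and leaving out a library gave 0 to 1 lower and 3 to 6 higher. MXD1 turned to -0.09 (quantile normalization), -0.02 (trimmed-mean scaling), -0.10 (median centring) and -0.14 (trend removed), and leaving out a library gave -0.08 to 0.11, with -0.08 without siControl replicate 3 and -0.01 without siRBCK1 replicate 3. MNT turned to -0.0036 after quantile normalization. The cause was not tested. For the named genes of the lists, 539 of 555 values kept direction and call, 16 lost the call and 0 reversed. These genes were chosen for large called changes without overlap, so the count does not speak for the lists as a whole. The replicate numbers did not pair the samples (same-numbered libraries correlated at -0.06, -0.187 and -0.038 in their deviations from the group means). With the replicate block, 3812 genes were higher and 1739 lower, 3 members were higher and 1 lower, and MYC had an adjusted p of 0.0542. The depth of the libraries is unknown, so no counting error could be given.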
